A study of Homo sapiens with 6 samples.

Results

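SP140, its close relatives SP140L, SP110 and SP100, and PML were examined in U87MG cells with and without LMO2 overexpression. The 5 genes were taken by symbol from the deposited comparison table and by Entrez gene ID from the tables of single libraries, where all 5 had a line in all 6 libraries, out of 27257 genes with a line in at least 1 library. The family was chosen by the group difference of SP140 in these same libraries, where SP140 was already known to be lower with LMO2, and the question was whether SP140 fell alone. The difference between the groups is therefore given for these 5 genes as a description, with no p-value.

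U87MG is an established human glioblastoma cell line, and the LIM-domain protein LMO2 bridges transcription factors in DNA-bound complexes. Total RNA was sequenced from 3 U87MG-control libraries, infected for 24 h with a control lentivirus, and 3 U87MG-LMO2 libraries, infected for the same time with an LMO2 lentivirus, so that both groups carried a lentivirus and differed by its cargo. All libraries came from 1 cell line, the study's methods put LMO2 into vectors named for the CMV promoter without saying which construct these libraries received, and nothing says whether replicates came from separate cultures, so the spread between them may be technical. LMO2 had 7, 11 and 5 expected counts in the control libraries and 5459, 4503 and 14570 in the U87MG-LMO2 libraries, with reads of vector and endogenous gene counted together.

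PML nuclear bodies are small spherical structures in the nucleus. The PML protein builds their shell, and SUMO-modified proteins such as SP100 and DAXX gather in them. SP100, SP110, SP140 and SP140L encode related chromatin proteins that share a SAND domain and an N-terminal domain for self-association, and several isoforms add a PHD finger and a bromodomain, which read modified histones. PML, SP100 and SP110 are induced by interferon in many cell types, and SP140 is best known from leukocytes.

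The 4 SP genes lie side by side on chromosome 2, and PML lies on chromosome 15. In GENCODE v29 (GRCh38), SP110 spans chr2:230167293-230225729 on the minus strand, SP140 spans chr2:230203110-230313215 on the plus strand, SP140L spans chr2:230327184-230403732 on the plus strand, and SP100 spans chr2:230415942-230544090 on the plus strand. PML spans chr15:73994673-74047812 on the plus strand. In GENCODE v29 the spans of SP110 and SP140 overlap on opposite strands, whereas the RefSeq starts described below point away from each other. Whether the counting used strand is not given in the sources used here, so reads from the overlap may not be told apart.

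Promoter windows from 250 bases before to 50 bases after each annotated start were taken from RefSeq (GRCh38.p14) and were found for 4 of the 5 genes, in 6 windows. PML had no entry. The starts of SP140 and of the first SP110 window point away from each other and are 100 bases apart, so that their windows share 199 bases. The longest run common to the SP140, SP140L and second SP110 windows, on either strand, had 16 bases, and the first SP110 window held it too. These stretches are shown because they hold the separate copies of this run, and in SP100 a variant of it, beside the start sites of genes with unlike differences between the groups. Each is written 5' to 3' in the direction of transcription, from 110 bases before the start site to 20 bases from it onward, and capitals mark the run or, in SP100, its variant.
SP140, chr2:230225626-230225755, plus strand: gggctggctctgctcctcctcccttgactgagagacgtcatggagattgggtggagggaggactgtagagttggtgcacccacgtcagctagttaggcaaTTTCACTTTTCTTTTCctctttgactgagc
SP110, second start, chr2:230219965-230220094, minus strand: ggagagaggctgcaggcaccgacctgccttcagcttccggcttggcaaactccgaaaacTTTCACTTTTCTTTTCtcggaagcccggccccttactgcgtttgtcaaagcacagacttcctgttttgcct
SP140L, chr2:230327083-230327212, plus strand: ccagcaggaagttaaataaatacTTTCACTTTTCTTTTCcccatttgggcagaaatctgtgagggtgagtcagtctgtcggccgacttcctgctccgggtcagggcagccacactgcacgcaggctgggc
SP100, first start, chr2:230416091-230416220, plus strand: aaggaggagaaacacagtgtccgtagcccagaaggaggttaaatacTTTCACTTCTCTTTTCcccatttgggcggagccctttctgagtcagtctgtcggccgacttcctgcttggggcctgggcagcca

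The run TTTCACTTTTCTTTTC, searched on both strands and therefore also as GAAAAGAAAAGTGAAA, was in 4 of 35116 promoter windows of the table (0.0114%), and all 4 belonged to SP110, SP140 and SP140L. SP140 and the first SP110 start share 1 copy, so the 4 windows held 3 separate copies. Because the run was picked as common to windows of these genes, its presence in them was fixed in advance. Its share of all windows only describes the run. The first SP100 window held the run with the difference T9C, counted from 1 at the 5' end of the run as written. With 1 differing base allowed, 13 windows of 12 genes held it (0.037%), among them SP100 and RELA, which encodes a subunit of NF-kB. In SP140 the run lay across the start site, from 10 bases before it to 5 bases after it. In the other windows it lay before the start, from 51 to 36 bases for the second SP110 start, from 87 to 72 bases for SP140L and from 64 to 49 bases for SP100. The SP140L window and the first SP100 window were 84.3% identical over 300 bases. The SP140 window was 59.3% identical to that of SP140L. That is near the lowest value of any pair, 58.0% between the first and second SP100 windows. Gaps were allowed and the better strand was taken, so 59.3% does not by itself show likeness. SP140, which differed between the groups, and SP110 and SP140L, whose libraries overlapped, carried the same 16 letters at unlike distances from their starts. Whether the run bears on the level of these genes was not tested.

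**Figure D1:**
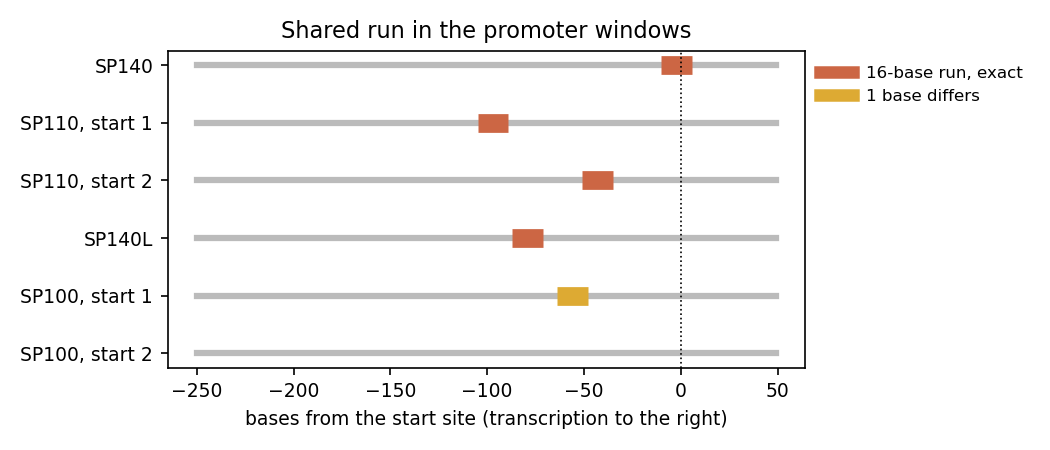
Position of the shared run in the 6 promoter windows of the SP genes. Grey lines are the windows, the horizontal axis gives bases from the start site with transcription to the right, and coloured blocks are the run. The block crosses the start site in the SP140 window and lies before it in the 3 other windows that hold the exact run and in the first SP100 window, where 1 base differs.

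A pair of motifs of interferon and cytokine signalling were also searched on both strands. GAAANNGAA, the core of an interferon-stimulated response element, was in 0 of the 6 windows and in 8.11% of all windows. TTCNNNGAA, a STAT-type palindrome, was in 1 of the 6, the second SP110 window, and in 7.66% of all windows. Only these exact patterns were searched, so other forms of the elements, also within the shared run, were not looked for. With 6 windows, 0 cannot be told apart from a share of 8.11%. These letters describe the windows only.

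SP140 was lower in U87MG-LMO2. Its FPKM, the read level per transcript length and sequencing depth, was 17.7, 17.0 and 16.9 in U87MG-control replicates 1 to 3 and 4.89, 4.60 and 4.72 in U87MG-LMO2 replicates 1 to 3. All 3 U87MG-LMO2 libraries were below all 3 controls, and the libraries within each group lay close together. The mean FPKM was 17.2 ± 0.443 (SD, n = 3) in U87MG-control and 4.74 ± 0.146 (SD, n = 3) in U87MG-LMO2. As normalised read count, scaled to TMM-adjusted library size, SP140 had 45.5 ± 1.14 CPM and 13.9 ± 1.54 CPM (SD, n = 3 each). On the log2 scale the fitted difference was -1.71 (SE 0.12), or 30.6% of the control level. Although each U87MG-LMO2 library was deeper than each control, the raw expected counts of SP140 were also lower, at 526.6, 637.4 and 585.1 in the controls and 206.4, 200.2 and 258.7 with LMO2.

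SP140L, the SP140-like gene next to SP140 in the cluster, had an FPKM of 7.98, 7.10 and 6.48 in the controls and of 7.57, 7.03 and 5.26 in U87MG-LMO2. The groups overlapped, since the lowest of the 6 values, that of U87MG-LMO2 replicate 3, stood apart and the other 2 U87MG-LMO2 values lay within the range of the controls. The log2 fold change was -0.09 (SE 0.15). It was 0.015 without U87MG-LMO2 replicate 3.

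SP110 encodes a nuclear body protein whose loss in humans causes an immunodeficiency with liver disease. Its FPKM was 8.81, 8.01 and 8.14 in the controls and 8.39, 5.99 and 6.94 in U87MG-LMO2. Replicate 1 of U87MG-LMO2 lay within the control range and the other 2 lay under it. The log2 fold change was -0.15 (SE 0.14).

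SP100, the founding member of the family and a constitutive component of the bodies, had an FPKM of 23.3, 15.2 and 17.2 in the controls and of 16.4, 14.4 and 13.5 in U87MG-LMO2. The spread within the controls was wide, with replicate 1 high, and the groups overlapped. The log2 fold change was -0.22 (SE 0.14), and it was -0.085 without U87MG-control replicate 1.

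PML, the scaffold of the bodies, had an FPKM of 47.3, 46.3 and 46.2 in the controls and of 41.0, 34.9 and 46.4 in U87MG-LMO2. The controls were tight and the U87MG-LMO2 libraries were not, and in FPKM replicate 3 of U87MG-LMO2 lay within the control range. In CPM, replicate 3 of U87MG-LMO2 was at 169.1, above the controls at 147.0 to 150.3. Replicates 1 and 2 of U87MG-LMO2 lay below the controls, at 133.2 and 112.3 CPM. The log2 fold change was -0.10 (SE 0.14), and it was 0.029 without U87MG-LMO2 replicate 2.

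**Figure D2:**
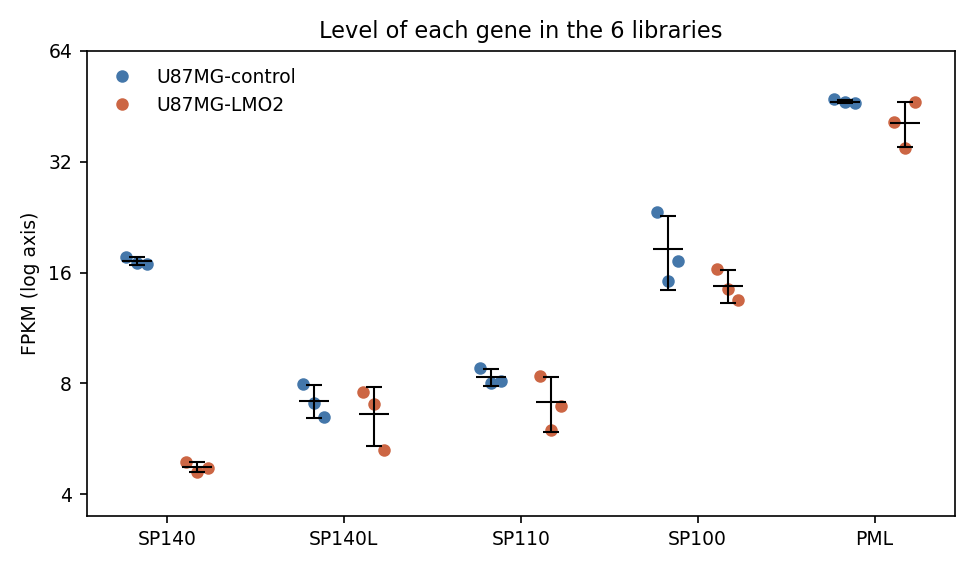
FPKM of the 5 genes in each library, on a log axis. Points are libraries, and black bars give the mean and SD of 3 libraries. The SP140 points fall from between 16.9 and 17.7 in U87MG-control to between 4.60 and 4.89 in U87MG-LMO2, and the groups overlap for the other 4 genes.

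In the edgeR fit across all tested genes, 1 of the 5 genes was called at an adjusted p under 0.05, and it was SP140. In that fit 7.48% of the 16092 tested genes were called, 4.72% higher and 2.75% lower in U87MG-LMO2. SP140 was also the 1 gene of the 5 with every U87MG-LMO2 library below every control in CPM, which held for 16.6% of tested genes. Since SP140 was part of what selected the family, these counts only place it among all genes. Among the 16092 tested genes, 35 had a lower log2 fold change than SP140, and 27 of them were called.

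The order of the 5 genes by FPKM also differed. PML ranked 1 in all 6 libraries. SP140 ranked 3, 2 and 3 in U87MG-control replicates 1 to 3, where it lay close to SP100 with a ratio to it of 0.758, 1.12 and 0.980, a pair that did not differ beyond the spread of SP100. SP110 and SP140L followed, with SP140 at 2.01 to 2.12 times SP110 and 2.22 to 2.60 times SP140L. In the U87MG-LMO2 libraries SP140 was last in all 3, at 0.298 to 0.351 of SP100, 0.583 to 0.768 of SP110 and 0.646 to 0.897 of SP140L. SP110 and SP140L changed places in replicate 2 and did not differ beyond their spread. In FPKM, 73.3% of tested genes lay below SP140 in U87MG-control and 45.1% in U87MG-LMO2.

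A measure within each library does not depend on the scaling between libraries. The log2 CPM of SP140 minus the mean of the log2 CPM values of SP140L, SP100 and SP110 was 0.66, 0.93 and 0.86 in the controls and -1.02, -0.71 and -0.48 in U87MG-LMO2. The means were 0.82 ± 0.14 and -0.74 ± 0.27 (SD, n = 3 each), with no overlap. Of the counts of the 4 SP genes together, SP140 held 31.9%, 37.3% and 35.2% in the controls and 13.3%, 15.6% and 17.9% in U87MG-LMO2. Both measures were lowest in U87MG-LMO2 replicate 1 and nearest to the controls in replicate 3, the U87MG-LMO2 library with the highest SP140 CPM (15.6).

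**Figure D3:**
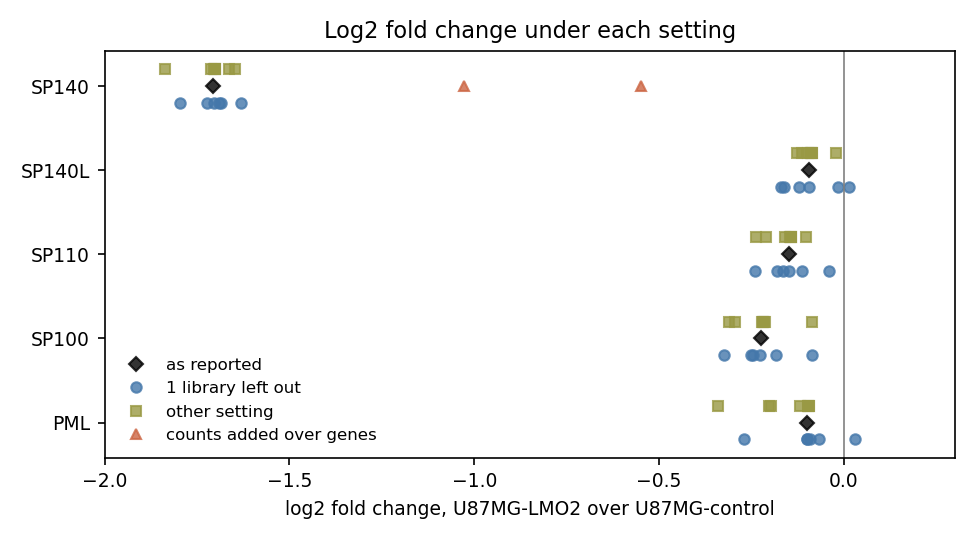
Log2 fold change of the 5 genes under each setting. Diamonds are the values as reported, circles the fits without 1 library, squares other settings, and triangles SP140 with the counts of its relatives added to it. SP140 stays between -1.84 and -1.63 unless counts are added, and the other 4 genes lie between -0.34 and 0.03.

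The 4 SP genes share sequence, and the expected counts of each were not whole numbers in 6 of 6 libraries, as arises where reads that match several genes are divided among them. PML counts were whole in all 6. How reads were divided among SP140 and its relatives is thus uncertain. When the counts of SP140 and SP140L were added together as 1 gene, the log2 fold change was -1.03, and with all 4 SP genes added it was -0.55.

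Each deposited table also gives the mean length of the transcripts assigned to a gene, which moves with the mix of isoforms. For SP140 it was 2593, 2756 and 2637 bases in the controls and 2603, 2956 and 3034 bases in U87MG-LMO2. The groups overlapped, with the longest values in U87MG-LMO2 replicates 2 and 3. For PML it was 3183, 3183 and 3192 bases in the controls and 3277, 3208 and 3344 bases in U87MG-LMO2. PML was the 1 gene of the 5 with a longer mean length in every U87MG-LMO2 library than in every control, which held for 9.2% of the 11058 tested genes whose length moved by at least 1 base. In U87MG-control and U87MG-LMO2, respectively, the mean level of PML was 46.6 ± 0.570 and 40.8 ± 5.78 FPKM (SD, n = 3 each), and 148.2 ± 1.81 and 138.2 ± 28.7 CPM (SD, n = 3 each).

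The genes on either side of the cluster were then compared. The 5 nearest tested genes before it in RefSeq order were PID1, DNER, TRIP12, FBXO36 and SLC16A14, and the 5 after it were LINC01907, CAB39, ITM2C, C2orf72 and PSMD1. edgeR called 0 of the 10, DESeq2 and limma also called 0, and 2 had an unadjusted p under 0.05, both higher. The share of all tested genes at that unadjusted threshold was not counted. Their log2 fold changes had a median of 0.16 and ran from -0.24 for CAB39 to 0.40 for ITM2C. Within the cluster, the long noncoding RNA LOC105373925 had a log2 fold change of -0.72 (SE 0.31) at 1.73 ± 0.368 and 1.06 ± 0.316 CPM (SD, n = 3 each) and was not called.

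**Figure D4:**
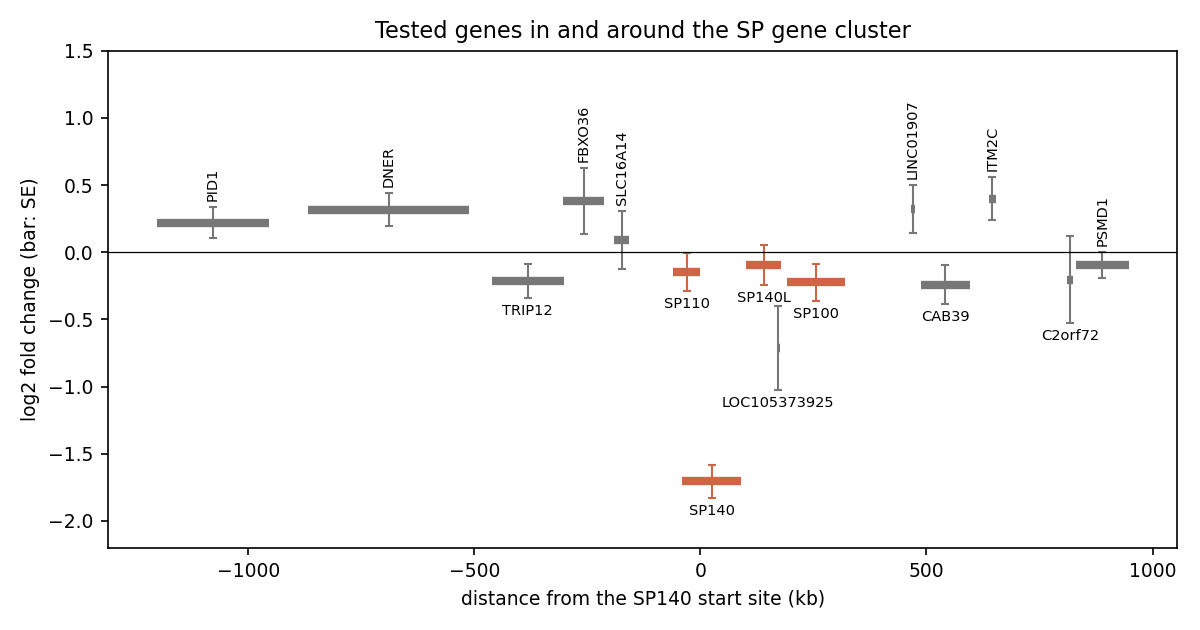
Log2 fold change of the tested genes in and around the SP cluster by distance from the SP140 start site in kb. Horizontal bars give each gene's annotated extent and vertical bars the SE, with SP genes in colour. SP140 lies at -1.71, and the 10 flanking genes lie between -0.24 and 0.40.

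Because PML, SP100 and SP110 are induced by interferon in many cell types, interferon-stimulated genes were examined beside the 5 genes. No response to interferon was measured here. Of 62 listed genes, 56 were tested, and 6 were called lower and 1 higher. The share called was 12.5%, beside 7.48% of all tested genes (2.75% lower and 4.72% higher). The median log2 fold change was -0.17 beside -0.01 over all tested genes. At an unadjusted edgeR p under 0.05, 15 genes of the list were lower and 2 higher. The share of all tested genes at that threshold was not counted, and the 7.48%, 2.75% and 4.72% belong to adjusted p-values. These 2 counts therefore have no background here. Every U87MG-LMO2 library lay below every control for 17 of the 56, beside 16.6% of all tested genes. OAS1, which makes the messenger that activates RNase L, had 4.42, 3.36 and 3.48 CPM in the controls and 0.610, 0.682 and 1.57 CPM in U87MG-LMO2, a log2 fold change of -1.95 (SE 0.35, edgeR adjusted p = 0.0184). IFI16, a nuclear DNA sensor, had 155, 134 and 132 CPM in the controls and 79.5, 81.3 and 77.3 CPM in U87MG-LMO2, a log2 fold change of -0.82 (SE 0.10, edgeR adjusted p = 0.0050). The groups did not overlap for either gene. PARP14, an ADP-ribosyltransferase, fell by 0.68 on the log2 scale, IFI44L by 0.66, TRIM5, a retroviral restriction factor, by 0.62, and IFI44 by 0.56, with edgeR adjusted p-values of 0.0436, 0.0368, 0.0196 and 0.0473. USP18, the deubiquitinase that restrains interferon receptor signalling, rose from 2.26, 2.34 and 3.48 CPM to 5.79, 6.61 and 4.16 CPM, a log2 fold change of 1.03 (SE 0.26, edgeR adjusted p = 0.0470). IFI16 was called in 14 of 14 alternative fits, OAS1 and TRIM5 in 10, and the other 4 in 5 to 7. Except for IFI16, each lost its call without any one of the U87MG-control libraries and without U87MG-LMO2 replicate 1, with edgeR adjusted p-values of at most 0.209, whereas 16 genes of the list were called without U87MG-LMO2 replicate 3. OAS1 had a log2 fold change of -0.93 with limma on log2(FPKM + 1).

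Of 22 interferon signalling genes, 19 were tested, and USP18, which is in both lists, was called higher, a share of 5.26% beside 7.48% of all tested genes. edgeR called 0 lower, as did DESeq2 and limma. In that direction 3 had an unadjusted p under 0.05, a threshold at which all tested genes were not counted. The median log2 fold change of the list was -0.04. STAT2 and IRF9, which carry the type I interferon signal to the nucleus, had log2 fold changes of 0.02 and 0.16, with edgeR adjusted p-values of 0.962 and 0.60.

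Among other components and regulators of PML nuclear bodies, 33 of 35 listed genes were tested and 1 was called, lower in U87MG-LMO2, a share of 3.03% beside 7.48% of all tested genes. That call was lost in the fits without a U87MG-control library and in the fit without U87MG-LMO2 replicate 1. edgeR called 0 genes of the list higher, DESeq2 called 1 and limma called 0. At an unadjusted edgeR p under 0.05, 4 genes of the list were lower and 2 higher, with no share of all tested genes counted at that threshold. Every U87MG-LMO2 library lay below every control for 6 of the 33, beside 16.6% of all tested genes. The median log2 fold change was -0.13. DAXX and ATRX, the histone H3.3 chaperone pair of the bodies, had log2 fold changes of -0.06 and -0.365, with edgeR adjusted p-values of 0.808 and 0.0794.

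SP140 belongs to the many readers with a bromodomain or SAND domain. Of 40 other such genes, 39 were tested and 2 were called, both lower, a share of 5.13% beside 7.48% of all tested genes, with a median log2 fold change of -0.08. BRWD3, a WD-repeat bromodomain protein, had a log2 fold change of -0.66 (SE 0.16, edgeR adjusted p = 0.0454), and KMT2A, a histone H3K4 methyltransferase, of -0.46 (SE 0.11, edgeR adjusted p = 0.0446). Each was called in 6 of 14 alternative fits and in none of those without a U87MG-control library or U87MG-LMO2 replicate 1. edgeR, DESeq2 and limma called 0 higher. At an unadjusted edgeR p under 0.05, 10 genes of the list were lower and 4 higher, with no share of all tested genes counted at that threshold. Every U87MG-LMO2 library lay below every control for 9 of the 39, beside 16.6% of all tested genes. DEAF1 and GMEB1, which carry a SAND domain like the SP genes, had log2 fold changes of 0.29 and -0.02, with edgeR adjusted p-values of 0.154 and 0.944. SP140 lay below all 39 genes of this list, and among the 56 interferon-stimulated genes OAS1 lay below it. As SP140 was chosen for its difference in these libraries, its place beside unselected genes is a description only.

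**Figure D5:**
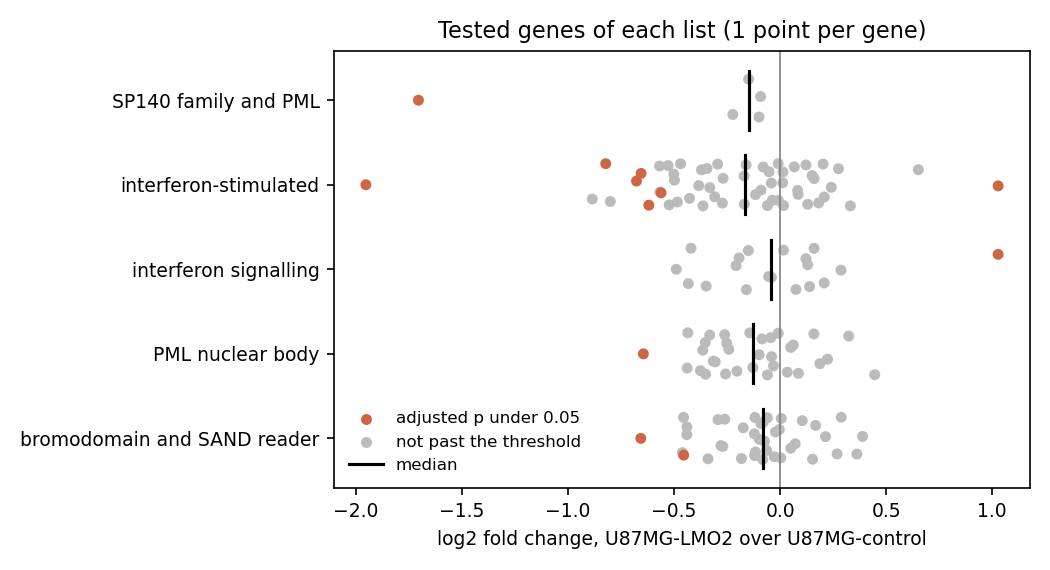
Log2 fold change of each tested gene in the 5 lists. Points are genes, coloured where the edgeR adjusted p was under 0.05, and black lines are medians. SP140 at -1.71, which was chosen for its difference, and OAS1 at -1.95 lie apart from the rest of their lists.

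By Pearson correlation of log2 CPM over the 6 libraries, the genes most like SP140 among 15225 others with a mean of at least 1 CPM were RAD50 (r = 0.999), BMP2K (r = 0.998) and NOP10 (r = 0.997). The 6 points are 2 groups of 3 libraries, and depth differed between the groups as well. Their differences were smaller, with log2 fold changes of -0.12, -0.44 and -0.32. The other members had r with SP140 of 0.244 for SP140L, 0.552 for SP100, 0.501 for SP110 and 0.398 for PML.

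As SP140 is best known from leukocytes, markers of these cells were counted. Of 15 markers, 7 were at 0 in all 6 libraries, among them MS4A1, CD79B, CD3D, AIF1, TYROBP and FCGR3A, which allows up to 3 counts in each, and PTPRC, the pan-leukocyte marker CD45, was at most 0.601 CPM. The summed level of the list was 18.2 to 21.8 CPM in the controls and 23.8 to 30.6 CPM in U87MG-LMO2, mostly from LYZ and CSF1R. CSF1R rose by a log2 fold change of 0.81 (edgeR adjusted p = 0.0325). LYZ and CSF1R were the only 2 markers with enough counts to be tested, so the sum describes mostly these genes and does not measure leukocyte content. In bulk RNA, fewer cells with SP140 and less SP140 RNA per cell cannot be told apart. The 11 glioma markers summed to 15030 to 15900 CPM in the controls and 16720 to 23860 CPM in U87MG-LMO2, with VIM, CD44 and FN1 most abundant, while GFAP was at most 0.803 CPM and SOX2, S100B and AQP4 were at 4 counts or fewer.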

How the data were processed

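For each of the 6 libraries the authors deposited a gene table with an expected count, an FPKM value and a mean transcript length. The expected counts deposited by the authors are raw estimated reads, some with decimals, and the FPKM values deposited by the authors are scaled to length and depth and rounded. The submitters' processing notes name Bowtie2, BWA and GRCh38.p12, and versions and the counting program are not given in the sources used here. The deposited comparison table holds group means, a log2 ratio and a probability, and only its gene symbols and means were used, to check the libraries. At a tolerance of 0.001 FPKM, 27259 genes matched the control mean and 27125 the U87MG-LMO2 mean. The remaining 134, which did not match the U87MG-LMO2 mean, were left out, and none was a member. The table of U87MG-LMO2 replicate 3 held 3 unreadable lines, and whether they account for all 134 was not tested. Depth was 11428432 to 13537284 expected counts in U87MG-control and 14630627 to 17892955 in U87MG-LMO2. Intervals and floors for counts cover counting error only.

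Expected counts were rounded and tested with edgeR 4.0.16 (filterByExpr, TMM, glmQLFit and glmQLFTest, 2-sided, Benjamini-Hochberg over 16092 genes, threshold 0.05) in R 4.3.3. The SE is the log2 fold change divided by the square root of F. Members, gene lists and tests were chosen with earlier results of these data known. The genes named are the members, LMO2, called genes of the 4 lists (at most 6 per direction with a mean of at least 1 CPM), the 3 genes most like SP140 and the neighbours of the cluster. STAT2, IRF9, DAXX, ATRX, DEAF1 and GMEB1 were named outside this rule, after their values were seen, as were the cell type markers given as checks and RELA. Alternatives were DESeq2 1.42.0, upper-quartile normalization, 2 filters, limma 3.58.1 on log2(FPKM + 1) and log2(FPKM + 0.1), the replicate block and leaving out each library. A GC-content correction (lowess span 0.3, GC known for 85.2% of tested genes) and summed SP counts were added after seeing the data. The scripts were tested on simulated data.

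Gene names came from RefSeq by Entrez ID (89.6% matched). Protein sequences were not used here, and some list genes are not reported here by name.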

Additional observations from a re-analysis of the deposited data

How the results depend on the processing

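Given as a description, since its difference chose the family, SP140 had log2 fold changes in 16 alternatives from -1.84 (limma on log2(FPKM + 0.1)) to -0.55 (counts of the 4 SP genes added), and from -1.80 to -1.63 with 1 library left out. None of the other 4 genes was called in any of 14 alternatives. With 1 library left out, SP140L ran from -0.17 to 0.015, SP100 from -0.33 to -0.085, SP110 from -0.24 to -0.04 and PML from -0.27 to 0.029. SP140L changed sign to 0.015 without U87MG-LMO2 replicate 3, and PML to 0.029 without U87MG-LMO2 replicate 2. The GC-content correction, chosen after seeing the data, gave -1.65 for SP140 and -0.34 for PML.

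The count of genes called rested on single libraries. Over all tested genes it ran from 144 without U87MG-control replicate 3 to 2409 without U87MG-LMO2 replicate 3, beside 1203 as reported. It was 169 and 179 without control replicates 1 and 2, and 225 without U87MG-LMO2 replicate 1. The same fits gave 1 to 16 interferon-stimulated, 0 to 4 interferon signalling, 0 to 2 PML nuclear body and 0 to 7 bromodomain and SAND genes, beside 7, 1, 1 and 2 as reported. Both limma fits called 4, 0, 0 and 0 genes of these lists. Over all tested genes limma called 890 on log2(FPKM + 1) and 875 on log2(FPKM + 0.1). DESeq2 called 2 PML nuclear body and 4 bromodomain and SAND genes, beside 1654 over all tested genes. The GC-content correction left 3 interferon-stimulated and 1 bromodomain and SAND gene, beside 880 over all tested genes. The cause was not tested.

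Replicate numbers did not pair the libraries. After subtracting each group's mean, libraries with the same number correlated at -0.14, -0.03 and -0.07. With the number as a replicate block, 576 genes were called, with 3 interferon-stimulated, 0 interferon signalling and 0 bromodomain and SAND genes, and the SP140 log2 fold change was -1.71. Depth limits low genes such as OAS1 and USP18 more than the SP genes, and 3 libraries a group limit every call.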
